A study of Mus musculus with 12 samples.

Results

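The chaperones of the cytosol and the mitochondrial matrix were described in mouse embryonic fibroblasts (MEF) with and without huntingtin, the protein made from the Htt gene. They are 40 genes, chosen by symbol from the heat shock, chaperonin, prefoldin and cochaperone families, out of 55487 genes listed in each library. All 40 were found and passed the filter on low counts in every comparison. The cells were primary cultures from E13.5 embryos, and all of them carried the same floxed genotype, HTTfl/fl. HTT-deleted cells had received a lentivirus for Cre recombinase (LV-Cre-GFP) and control cells a lentivirus for H2B-eGFP, so the controls were floxed and transduced too. Harvest followed 7 days after the viruses were added. Ribosomes were purified from the suspension, and a small fraction of it was set aside for total RNA. RNA sequencing covered 4 groups of 3 libraries: ribosome-associated RNA of HTT-deleted and of control cells, and total RNA of HTT-deleted and of control cells. A replicate was another primary culture or another passage, so p-values reflect the variation among those only.

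Chaperones bind unfolded proteins and help them to reach or keep their folded state. Hsp70 proteins hold short exposed stretches in cycles of ATP hydrolysis, Hsp40 (J-domain) proteins deliver clients and start the cycle, and Hsp110 and BAG-domain proteins exchange the nucleotide. Hsp90 acts with its own cochaperones on clients such as kinases and steroid receptors. Prefoldin hands new actin and tubulin chains to the cytosolic chaperonin, which folds them in a closed chamber. In the mitochondrial matrix, mortalin and the Hsp60 and Hsp10 chaperonin fold imported proteins. Heat shock factor 1 switches on many of these genes under stress through heat shock elements, which are inverted repeats of a short unit. Huntingtin with an expanded glutamine tract is a well known client of this machinery, but the labels of these cells name a deletion and no such expansion.

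Promoter sequences from RefSeq (GRCm38.p6, 250 bases before to 50 bases after a start site) were searched for heat shock elements of 3 units. The motifs were GAANNTTCNNGAA and TTCNNGAANNTTC, each of which is the reverse complement of the other, so that the pair covers both strands, and matches may overlap. Of 33 chaperone genes with a window, 4 held a match (12.1%), against 179 of 27025 genes in all (0.662%). The 4 were Hspd1 and Hspe1, for the mitochondrial chaperonin Hsp60 and its lid Hsp10, Dnajb6, for an Hsp40 protein, and Hsph1, for an Hsp110 protein. No window was available for 7 genes, Hspa8, Hsp90aa1, Hsp90ab1, Cct4, Pfdn1, Hspa9 and Hsf1, so they were not searched. Elements that depart from these motifs or lie outside the windows were not searched for, so a gene without a match may still have one. Hspe1 and Hspd1 lie head to head, and their windows share 285 bases read from opposite strands. The same 2 overlapping matches lie at bases -89 to -72 from the start of Hspe1 and at -144 to -127 from that of Hspd1. The windows are shown because Hspe1 and Dnajb6 are among the genes that differed between the RNA fractions, with Hsph1 as the remaining match. Capitals mark the matched letters, which are a description and not evidence of a bound factor.
Hspe1 (chr1:55087898-55088197, plus strand): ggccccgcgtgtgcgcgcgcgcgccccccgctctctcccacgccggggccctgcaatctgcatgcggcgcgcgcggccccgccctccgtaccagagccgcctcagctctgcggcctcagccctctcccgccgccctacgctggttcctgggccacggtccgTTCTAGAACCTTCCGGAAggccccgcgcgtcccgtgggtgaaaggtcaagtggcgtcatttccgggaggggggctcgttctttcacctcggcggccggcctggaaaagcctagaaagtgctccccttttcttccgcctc
Dnajb6 (chr5:29735648-29735947, plus strand): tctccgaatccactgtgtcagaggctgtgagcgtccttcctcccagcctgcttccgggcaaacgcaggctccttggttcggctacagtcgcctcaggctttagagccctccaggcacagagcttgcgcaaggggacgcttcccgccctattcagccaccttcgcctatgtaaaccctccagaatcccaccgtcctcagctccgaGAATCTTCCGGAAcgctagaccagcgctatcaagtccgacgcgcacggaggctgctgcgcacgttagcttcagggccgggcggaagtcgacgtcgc
Hsph1 (chr5:149636287-149636586, minus strand): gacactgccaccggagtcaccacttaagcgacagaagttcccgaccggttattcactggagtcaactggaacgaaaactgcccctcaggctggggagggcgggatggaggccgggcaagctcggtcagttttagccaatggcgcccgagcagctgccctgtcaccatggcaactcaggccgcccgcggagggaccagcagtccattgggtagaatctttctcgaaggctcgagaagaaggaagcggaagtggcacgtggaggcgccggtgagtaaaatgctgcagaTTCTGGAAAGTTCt

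Reads of the stress-inducible Hsp70 genes Hspa1a and Hspa1b cannot always be assigned. Their coding sequences of 1923 and 1926 bases share an unbroken stretch of 638 bases, and 54.2% of the 75-base windows of Hspa1a also occur in another gene. A 75-base piece of that stretch is shown, because a read from it fits both genes (GRCm38, chr17:34971414-34971488 in Hspa1a and chr17:34958496-34958570 in Hspa1b, minus strand).
Hspa1a and Hspa1b: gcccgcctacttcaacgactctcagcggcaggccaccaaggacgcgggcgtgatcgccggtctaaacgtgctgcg
Windows shared with other annotated genes made up 68.0% of Hspa8, 57.7% of Hspb1, 53.1% of Hsp90aa1, 39.2% of Dnajb6, 33.7% of Hspd1, 23.7% of Hspe1, 21.2% of Ptges3 and 19.1% of Pfdn5. Reads without a unique alignment were tallied apart, at 826161 to 1467118 per library. Whether any were also counted for a gene is not stated in the sources that were used. Counts of these genes are therefore uncertain, to an extent that the share of windows does not measure. Stub1 and Pfdn2 lie opposite other genes over 42.3% and 27.6% of their exons, and the strand setting of the counting is not stated either.

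Gene counts per library summed to 16789356 to 30571501. Among the 40 genes, Hspa1a had the fewest reads, 59 to 152 per library. Htt was lower in every HTT-deleted library, with 15.5, 10.6 and 10.7 CPM in HTT-deleted total RNA, against 58.9, 45.8 and 64.6 CPM in control total RNA (CPM, TMM-scaled counts relative to library size), and 12.8, 5.05 and 3.98 CPM in HTT-deleted ribosome-associated RNA, against 22.6, 20.1 and 32.0 CPM in control ribosome-associated RNA. Its log2 fold changes of -2.16 and -1.78 had adjusted p-values of 0.812 and 1.0 in edgeR's quasi-likelihood test. Htt in total RNA did pass under other fits, with an adjusted p of 7.01e-12 in DESeq2, 0.0416 in edgeR with no filter on low counts and 5.51e-06 in edgeR with pair 1 left out and the replicate block. In ribosome-associated RNA those fits gave 0.212, 0.999 and 0.0869. The authors' deposited table gives Htt false discovery rates of 3.98e-39 in total and 4.48e-07 in ribosome-associated RNA. The total RNA library of HTT-deleted replicate 1 stood apart: its deviations from the mean of the other total RNA libraries correlated with transcript length at a Spearman rho of -0.597 over 12454 genes, with short transcripts high. The control ribosome-associated library of replicate 1 had -0.481, and the other libraries had 0.0163 to 0.404. All 12 fibroblast markers were detected in each library, with a summed level of 27990 to 50480 CPM in HTT-deleted and 32570 to 53360 CPM in control libraries. The 18 macrophage markers were detected in each library as well. They summed to 7624, 1863 and 2909 CPM in HTT-deleted total RNA, against 3353, 817.0 and 1909 CPM in control total RNA, and to 8663, 2867 and 3784 CPM in HTT-deleted ribosome-associated RNA, against 5048, 1232 and 2731 CPM in control ribosome-associated RNA. All 18 had a log2 fold change above 0 between HTT-deleted and control cells in both RNA fractions, and edgeR called 0 without the replicate block. With the block 10 of 18 were called higher in HTT-deleted cells in ribosome-associated RNA and 0 in total RNA, and with pair 1 left out besides 1 and 5 were. Between ribosome-associated and total RNA of control cells 0 of 18 were called without the block and 14 with it, all higher on ribosomes. The part of these markers in the results below was not tested. In bulk RNA, fewer cells of a type and less RNA per cell cannot be told apart.

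Levels of the chaperone genes spread widely. Per kb of annotated transcript, the Hsp90 gene Hsp90ab1 was the highest in all 4 groups, with 711 ± 99.3 CPM per kb in HTT-deleted and 658 ± 18.8 CPM per kb in control total RNA (SD, n = 3 each). Hspa8, the constitutive cytosolic Hsp70, came next with 353 ± 8.67 CPM per kb in HTT-deleted and 361 ± 12.6 CPM per kb in control total RNA. Hspe1, Hsp90aa1 and Hspa9 followed, at 184 ± 115, 166 ± 44.2 and 142 ± 14.2 CPM per kb in HTT-deleted total RNA and at 129.6 ± 3.81, 148 ± 2.69 and 141 ± 12.5 CPM per kb in control total RNA. In total RNA the means of Hspe1 and Hsp90aa1 lay apart by more than their SDs in control cells and by less in HTT-deleted cells. The 8 subunit genes of the cytosolic chaperonin ranged between 68.5 (Cct6a) and 134 CPM per kb (Cct2) in HTT-deleted total RNA, and between 64.2 and 129 CPM per kb, for the same 2 genes, in control total RNA. The lowest 3 in all groups were Hspa1b, Hspa1a and Hspa4l, an Hsp110 gene. They had 4.05, 1.51 and 0.819 CPM per kb in HTT-deleted total RNA, against 3.75, 1.36 and 1.22 CPM per kb in control total RNA. All 40 genes together took 0.776 to 1.00% of gene counts in HTT-deleted and 0.776 to 0.854% in control total RNA. In ribosome-associated RNA they took 0.834 to 0.923% in HTT-deleted and 0.840 to 0.944% in control cells.

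**Figure D1:**
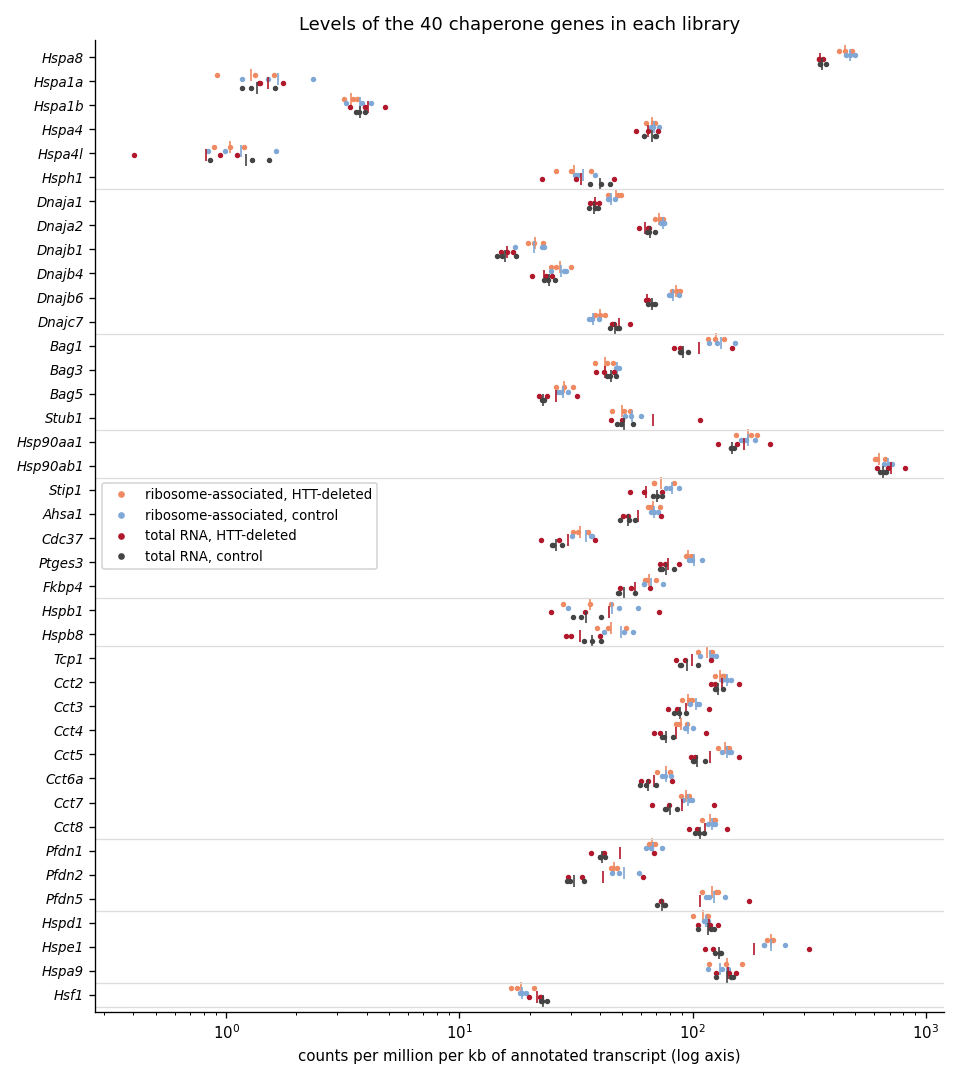
Level of each of the 40 chaperone genes in CPM per kb of transcript on a log axis, by role, with a dot for each library, a tick for each mean of 3 and colours for the 4 groups. Hsp90ab1 and Hspa8 are the highest and Hspa4l the lowest in all groups, and the groups of a gene lie close together on this scale.

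HTT-deleted and control cells were first compared in total RNA. No chaperone gene changed past the threshold: 0 of 40 were called in edgeR's quasi-likelihood test at an adjusted p of 0.05, and 0.0% of 14759 genes were. At an unadjusted p under 0.05 there were 0 of the 40, and 44 of all genes. DESeq2 and limma voom also called 0 of 40. The median log2 fold change of the 40 genes was 0.12, against 0.013 over all genes, and 29 of 40 lay above 0. The median depended on single libraries. It was 0.31, -0.077 and -0.048 in the pairs of replicates 1, 2 and 3, and without HTT-deleted replicate 1 it was -0.044, with 9 of 40 genes above 0. Without HTT-deleted replicate 2 it was 0.22. Over all 3 pairs 1 gene lay above 0 each time and 6 below, where 9.99% and 13.2% of all genes did.

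By role, the Hsp70 and Hsp110 genes and the Hsp40 genes had the median log2 fold changes nearest to 0, at -0.015 and -0.00036. The Hsp70 and Hsp110 genes went both ways, from -0.56 to 0.18, with a median absolute change of 0.16. The Hsp40 genes ran from -0.045 to 0.081, with a median absolute change of 0.044. Hspa8 had 832, 833 and 868 CPM in HTT-deleted total RNA, against 899, 845 and 847 CPM in control total RNA. The groups overlapped, and the 95% interval of its log2 fold change ran from -0.36 to 0.36. Hspa1a had 4.09, 4.15 and 5.21 CPM in HTT-deleted total RNA, against 3.80, 4.80 and 3.47 CPM in control total RNA. Hspa1b had 9.56, 11.02 and 13.45 CPM in HTT-deleted total RNA, against 11.1, 10.1 and 10.4 CPM in control total RNA. Both inducible Hsp70 genes overlapped between groups, with log2 fold changes of 0.18 and 0.14. Dnajb1, the stress-inducible Hsp40, had 45.3, 48.1 and 50.9 CPM in HTT-deleted total RNA, against 45.7, 43.4 and 52.5 CPM in control total RNA, and these overlapped as well. Hspa4l, which exchanges nucleotide on Hsp70, was among the 3 genes with the smallest p. It had 3.81, 8.95 and 10.5 CPM in HTT-deleted total RNA, against 12.2, 14.4 and 8.08 CPM in control total RNA (log2 fold change -0.56 ± 0.40 SE, edgeR adjusted p = 0.978). Its lowest library was HTT-deleted replicate 1, while HTT-deleted replicate 3 lay above the lowest control.

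Several cochaperone genes and both Hsp90 genes were highest in HTT-deleted replicate 1. Stub1, a ubiquitin ligase that acts on chaperone clients, had 195, 80.4 and 89.6 CPM in HTT-deleted total RNA, against 85.8, 88.6 and 101 CPM in control total RNA, with only HTT-deleted replicate 1 above the controls. Bag3, a BAG-domain protein of selective autophagy, had 98.5, 107 and 118 CPM in HTT-deleted total RNA, against 110.4, 114 and 119.8 CPM in control total RNA, and the groups overlapped. Hsp90aa1, the inducible Hsp90, had 704, 421 and 509.8 CPM in HTT-deleted total RNA, against 496, 480.4 and 481 CPM in control total RNA. Hsp90ab1 had 2060, 1566 and 1745 CPM in HTT-deleted total RNA, against 1667, 1607 and 1701 CPM in control total RNA. In both Hsp90 genes HTT-deleted replicate 1 was the highest of the 6 libraries and HTT-deleted replicate 2 the lowest. Hspb1, a small heat shock protein that holds unfolded chains, had 64.8, 31.2 and 22.3 CPM in HTT-deleted total RNA, against 30.0, 36.5 and 27.7 CPM in control total RNA, again with HTT-deleted replicate 1 the highest library.

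The chaperonin and prefoldin genes had log2 fold changes above 0 throughout, with medians of 0.13 over 8 genes and 0.46 over 3. All 8 chaperonin genes lay above 0 in pair 1 and below 0 in pairs 2 and 3. Cct2 had 309, 236 and 245 CPM in HTT-deleted total RNA, against 247, 244 and 264 CPM in control total RNA. Tcp1 had 293, 208 and 227 CPM in HTT-deleted total RNA, against 217, 218 and 259 CPM in control total RNA. In either gene HTT-deleted replicate 1 exceeded every control library and HTT-deleted replicate 2 was below every control library. Pfdn5 and Pfdn2, for subunits of prefoldin, had the smallest p of the 40. Pfdn5 had 186, 77.7 and 77.7 CPM in HTT-deleted total RNA, against 80.5, 81.3 and 74.5 CPM in control total RNA (log2 fold change 0.58 ± 0.38 SE, edgeR adjusted p = 0.978). Pfdn2 had 106, 50.5 and 58.2 CPM in HTT-deleted total RNA, against 59.3, 50.1 and 51.6 CPM in control total RNA (log2 fold change 0.46 ± 0.31 SE, edgeR adjusted p = 0.978). In both genes HTT-deleted replicate 1 was the highest library, and the other HTT-deleted libraries lay within the range of the controls.

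Among the mitochondrial genes, Hspe1 had 246, 87.4 and 94.6 CPM in HTT-deleted total RNA, against 97.0, 102 and 102 CPM in control total RNA (log2 fold change 0.55 ± 0.42 SE, edgeR adjusted p = 0.978). Without HTT-deleted replicate 1 its log2 fold change was -0.13, and the other HTT-deleted libraries were below all controls. Hspd1, which starts from the same region shown above, had 312, 257 and 287 CPM in HTT-deleted total RNA, against 289.8, 256 and 299 CPM in control total RNA. Hspa9, for mortalin, had 439, 471 and 385 CPM in HTT-deleted total RNA, against 457, 445 and 386 CPM in control total RNA. Both overlapped between groups. Hsf1, for heat shock factor 1, was the only one of the 40 whose groups did not overlap. It had 46.5, 41.6 and 46.3 CPM in HTT-deleted total RNA, against 46.9, 47.1 and 49.5 CPM in control total RNA, a log2 fold change of -0.063 ± 0.13 SE with an edgeR adjusted p of 0.978. Groups apart in that direction were found for 2.6% of all genes.

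**Figure D2:**
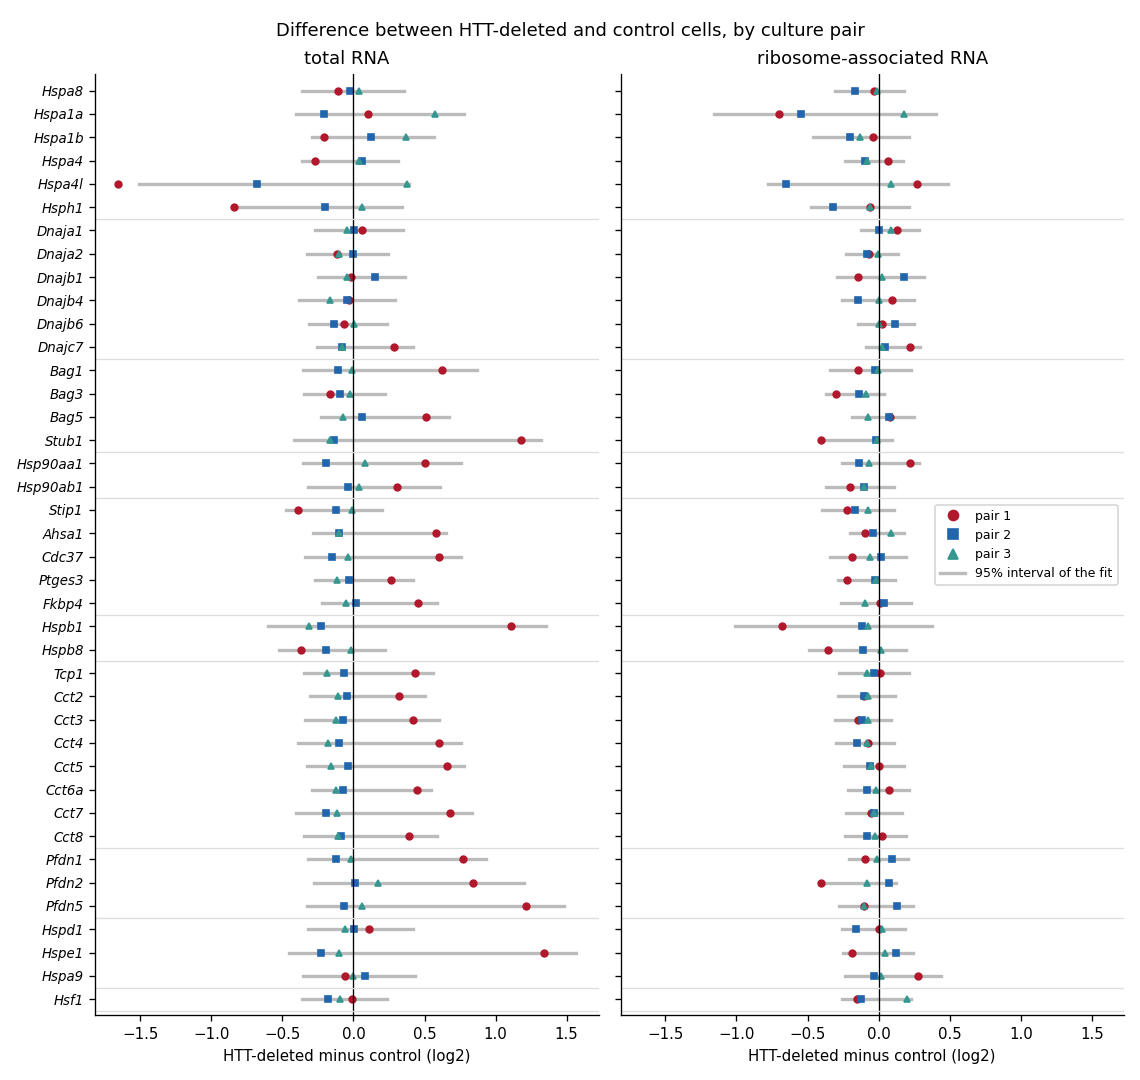
Log2 difference between HTT-deleted and control libraries for each of the 40 chaperone genes, in total RNA (left) and ribosome-associated RNA (right); symbols are the 3 replicate pairs and grey bars the 95% interval of the fit. In total RNA pair 1 lies far from pairs 2 and 3 for many genes, for example Hspe1 at 1.34, and in ribosome-associated RNA the pairs lie closer together.

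The intervals say how large a difference these libraries leave possible. With all libraries, 34 of 40 intervals in total RNA lay within 2-fold in either direction and 14 within 1.41-fold. Without HTT-deleted replicate 1 these counts were 40 and 36. With replicate pair 1 left out and the replicate number as a block, 0 of 40 were called, where 0.629% of all genes were.

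In ribosome-associated RNA 0 of 40 chaperone genes were called by edgeR, and 0.0% of 14588 genes. At an unadjusted p under 0.05 there were 0 of the 40, and 110 of all genes. DESeq2 and limma voom called 0 of 40. With the replicate block 1.69% of all genes were called, and 0.0944% with pair 1 left out besides, with 0 of the 40 in either fit. The median log2 fold change was -0.035, against -0.0010 over all genes, and 7 of 40 lay above 0. Leaving out each library in turn gave medians below 0 each time, of -0.071, -0.016 and -0.058 without HTT-deleted replicates 1, 2 and 3 and of -0.022, -0.064 and -0.038 without control replicates 1, 2 and 3. The pairs had medians of -0.072, -0.080 and -0.020. In all 3 pairs 16 genes lay below 0 and 3 above, where 15.6% and 16.1% of all genes did. Of the 40 intervals, 38 lay within 2-fold and 37 within 1.41-fold, and those beyond 2-fold were of Hspa1a and Hspb1.

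Bag3 had the smallest p. It had 98.1, 110.2 and 116 CPM in HTT-deleted ribosome-associated RNA, against 121, 121 and 124 CPM in control ribosome-associated RNA (log2 fold change -0.17 ± 0.086 SE, edgeR adjusted p = 1.00). The 3 HTT-deleted libraries lay below all 3 controls, which held for 2.82% of all genes. Stub1 had 81.5, 91.4 and 97.5 CPM in HTT-deleted ribosome-associated RNA, against 108, 92.5 and 98.3 CPM in control ribosome-associated RNA (log2 fold change -0.14 ± 0.10 SE, edgeR adjusted p = 1.00). Stip1, which joins Hsp70 to Hsp90, had 144.6, 144.8 and 176 CPM in HTT-deleted ribosome-associated RNA, against 168.5, 162 and 185 CPM in control ribosome-associated RNA (log2 fold change -0.15 ± 0.11 SE, edgeR adjusted p = 1.00). Both overlapped between groups.

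The widest differences were those of Hspa1a and Hspb1. Hspa1a had 2.71, 4.76 and 3.94 CPM in HTT-deleted ribosome-associated RNA, against 4.47, 6.97 and 3.47 CPM in control ribosome-associated RNA (log2 fold change -0.38 ± 0.33 SE, edgeR adjusted p = 1.00). Hspb1 had 32.8, 40.3 and 25.0 CPM in HTT-deleted ribosome-associated RNA, against 52.7, 43.8 and 26.3 CPM in control ribosome-associated RNA (log2 fold change -0.31 ± 0.29 SE, edgeR adjusted p = 1.00). Each varied among its control libraries by more than that difference. Hspa8 had 1161, 1013 and 1075 CPM in HTT-deleted ribosome-associated RNA, against 1186, 1139 and 1085 CPM in control ribosome-associated RNA, and the groups overlapped. Hspa1b had 8.95, 10.2 and 9.76 CPM in HTT-deleted ribosome-associated RNA, against 9.18, 11.7 and 10.7 CPM in control ribosome-associated RNA, an overlap too. Hsp90ab1 had 1532, 1557 and 1688 CPM in HTT-deleted ribosome-associated RNA, against 1760, 1669 and 1809 CPM in control ribosome-associated RNA, and HTT-deleted replicate 3 lay above the lowest control. Hsp90aa1 had 618, 505 and 583 CPM in HTT-deleted ribosome-associated RNA, against 529.9, 556 and 611 CPM in control ribosome-associated RNA, with HTT-deleted libraries at both ends of the range. Dnajb1 had 62.4, 58.7 and 68.5 CPM in HTT-deleted ribosome-associated RNA, against 69.0, 51.8 and 67.5 CPM in control ribosome-associated RNA.

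No chaperonin, prefoldin or mitochondrial gene passed in ribosome-associated RNA. Cct2 had 267, 244 and 262 CPM in HTT-deleted ribosome-associated RNA, against 287, 262 and 275 CPM in control ribosome-associated RNA. Tcp1 had 297, 258 and 292 CPM in HTT-deleted ribosome-associated RNA, against 296, 264 and 309 CPM in control ribosome-associated RNA. The 8 chaperonin genes had log2 fold changes of -0.11 to -0.0024, all below 0, and 0 of them passed. Pfdn5 had 137, 133 and 116 CPM in HTT-deleted ribosome-associated RNA, against 147, 122 and 125 CPM in control ribosome-associated RNA, without the high library seen in total RNA. Hspe1 had 169, 172 and 161 CPM in HTT-deleted ribosome-associated RNA, against 192, 157 and 157 CPM in control ribosome-associated RNA, and Hspd1 had 283, 243 and 280.1 CPM in HTT-deleted ribosome-associated RNA, against 283, 271 and 275 CPM in control ribosome-associated RNA. Hspa9 had 497, 425 and 359.8 CPM in HTT-deleted ribosome-associated RNA, against 409.9, 433 and 356 CPM in control ribosome-associated RNA, and Hsf1 had 34.8, 36.7 and 43.4 CPM in HTT-deleted ribosome-associated RNA, against 38.7, 40.1 and 37.8 CPM in control ribosome-associated RNA. All of these overlapped between groups.

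The authors' deposited table, which per its name removes 2 factors of unwanted variation, gives Pfdn5 a log2 fold change of 0.44 in total RNA with a false discovery rate of 0.0236. That was the only one of the 40 under 0.05 there, against 4.97% of the genes in the authors' deposited table. For ribosome-associated RNA the authors' deposited table had 0 of 40 under 0.05 and 4.21% of its genes. In the counts, Pfdn5 was high in 1 of 3 HTT-deleted libraries, as given above.

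Ribosome-associated RNA was then compared with total RNA, which asks whether a transcript takes a larger share of RNA on ribosomes than in the cell. In control cells 16 of 40 chaperone genes were called by edgeR, 14 higher and 2 lower on ribosomes, where 25.0% of 14990 genes were called, 10.0% higher and 15.0% lower. The median log2 fold change was 0.26, against 0.017 over all genes, and 33 of 40 lay above 0. Groups were apart for 25 of 40 in the higher and 2 of 40 in the lower direction, against 20.6% and 23.5% of all genes. With the replicate block 26 of 40 were called, where 50.2% of all genes were. The count was sensitive to single libraries. Without control total RNA replicate 1 it was 4, where 1507 of 15205 genes in all were called. Without control total RNA replicate 2 it was 4 as well, where 2119 of 15464 genes were called. Without control total RNA replicate 3 it was 7, where 2197 of 15232 were. Without control ribosome-associated replicate 1 it was 10, where 2671 of 15628 were.

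All 3 prefoldin genes rose on ribosomes. Pfdn5 had 147, 122 and 125 CPM in control ribosome-associated RNA, against 80.5, 81.3 and 74.5 CPM in control total RNA (log2 fold change 0.73 ± 0.10 SE, edgeR adjusted p = 0.00483). Pfdn1 had 81.8, 69.9 and 73.3 CPM in control ribosome-associated RNA, against 44.6, 44.4 and 46.8 CPM in control total RNA (log2 fold change 0.72 ± 0.089 SE, edgeR adjusted p = 0.00335). Pfdn2 had 102, 78.1 and 84.2 CPM in control ribosome-associated RNA, against 59.3, 50.1 and 51.6 CPM in control total RNA (log2 fold change 0.71 ± 0.13 SE, edgeR adjusted p = 0.0108). In each gene the lowest ribosome-associated library was above the highest total RNA library.

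Of the genes for the mitochondrial chaperonin, Hspe1 passed and Hspd1 did not, and the difference between them was not tested. Hspe1 had 192, 157 and 157 CPM in control ribosome-associated RNA, against 97.0, 102 and 102 CPM in control total RNA (log2 fold change 0.74 ± 0.10 SE, edgeR adjusted p = 0.00478). Hspd1 had 283, 271 and 275 CPM in control ribosome-associated RNA, against 289.8, 256 and 299 CPM in control total RNA, with overlap (log2 fold change -0.035 ± 0.087 SE, edgeR adjusted p = 0.822). The ratio of Hspe1 to Hspd1 CPM was 0.569 to 0.679 in control ribosome-associated RNA, against 0.335 to 0.399 in control total RNA. Hspa9 had 409.9, 433 and 356 CPM in control ribosome-associated RNA, against 457, 445 and 386 CPM in control total RNA, and did not pass (log2 fold change -0.11).

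**Figure D3:**
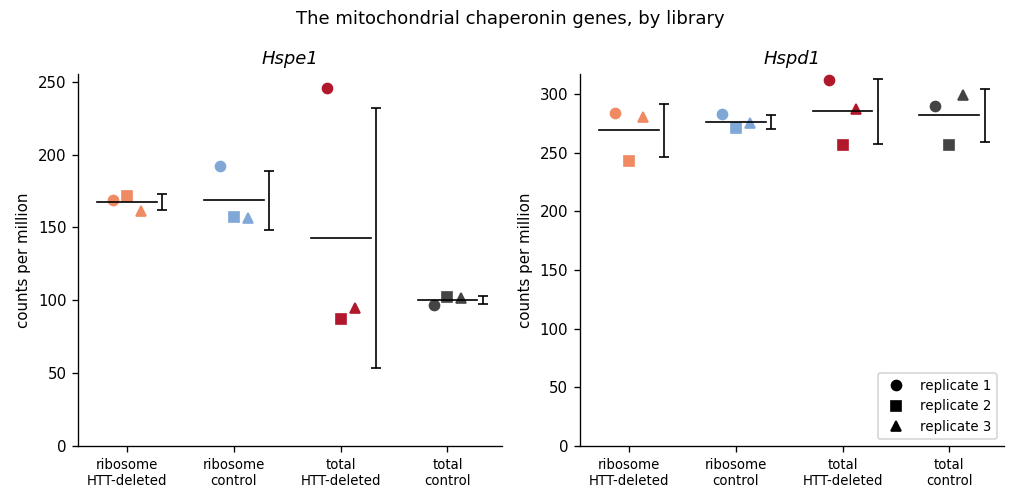
CPM of Hspe1 and Hspd1, the genes of the mitochondrial Hsp10 and Hsp60, in the 12 libraries by group; symbols are replicates, lines the means of 3 and bars 1 SD. Hspe1 is higher in ribosome-associated than in total RNA libraries except for HTT-deleted total RNA replicate 1 at 246 CPM, and Hspd1 keeps between 243 and 312 CPM.

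In the Hsp70 system Bag1, a nucleotide exchange factor, had 162, 136 and 125 CPM in control ribosome-associated RNA, against 102, 95.8 and 94.5 CPM in control total RNA (log2 fold change 0.52 ± 0.11 SE, edgeR adjusted p = 0.0175). Hspa8 had 1186, 1139 and 1085 CPM in control ribosome-associated RNA, against 899, 845 and 847 CPM in control total RNA (log2 fold change 0.39 ± 0.091 SE, edgeR adjusted p = 0.0224). Dnajc7, a J-domain protein that also binds Hsp90, was lower on ribosomes, with 83.7, 86.1 and 92.1 CPM in control ribosome-associated RNA, against 103, 113 and 111 CPM in control total RNA (log2 fold change -0.32 ± 0.077 SE, edgeR adjusted p = 0.0232). Groups were apart in all 3 genes. Dnajb6 and Bag5 were called too, with log2 fold changes of 0.30 and 0.27.

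Of the Hsp90 cochaperones 4 of 5 were called higher, where 10.0% of all genes were. With the replicate block 5 of 5 were, where 50.2% of all genes were called in either direction. Cdc37, which brings kinases, had 289, 238 and 292 CPM in control ribosome-associated RNA, against 198, 196 and 216 CPM in control total RNA (log2 fold change 0.42 ± 0.11 SE, edgeR adjusted p = 0.0298). Ptges3, or p23, had 219, 193 and 199 CPM in control ribosome-associated RNA, against 145, 149 and 166 CPM in control total RNA (log2 fold change 0.40 ± 0.091 SE, edgeR adjusted p = 0.0199). Fkbp4, which acts on steroid receptors, had 137, 137 and 165 CPM in control ribosome-associated RNA, against 106, 107 and 126 CPM in control total RNA (log2 fold change 0.37 ± 0.11 SE, edgeR adjusted p = 0.0467). In all of these genes the groups were apart. Ahsa1, which speeds the Hsp90 ATPase, had 97.6, 91.5 and 94.2 CPM in control ribosome-associated RNA, against 67.4, 73.9 and 77.8 CPM in control total RNA (log2 fold change 0.36 ± 0.080 SE, edgeR adjusted p = 0.0186). Stip1 had a log2 fold change of 0.20 ± 0.085 SE (edgeR adjusted p = 0.135). Hsp90aa1 and Hsp90ab1 themselves had 0.21 and 0.068 and did not pass. With the replicate block Hsp90aa1 passed and Hsp90ab1 did not.

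Of the 8 cytosolic chaperonin genes 2 were called higher, where 10.0% of all genes were, and all 8 had log2 fold changes above 0. With the replicate block 6 of 8 were called higher, Tcp1 among them, where 50.2% of all genes were called in either direction. Cct5 had 267, 247 and 269.8 CPM in control ribosome-associated RNA, against 185, 187 and 211 CPM in control total RNA (log2 fold change 0.42 ± 0.086 SE, edgeR adjusted p = 0.0144), and Cct4 had a log2 fold change of 0.30 ± 0.080 SE (edgeR adjusted p = 0.0318). Tcp1 had 296, 264 and 309 CPM in control ribosome-associated RNA, against 217, 218 and 259 CPM in control total RNA, with groups apart but an edgeR adjusted p of 0.0670. Cct2 had 287, 262 and 275 CPM in control ribosome-associated RNA, against 247, 244 and 264 CPM in control total RNA, with overlap and a log2 fold change of 0.12. Hsf1 was the second gene that was lower on ribosomes, with 38.7, 40.1 and 37.8 CPM in control ribosome-associated RNA, against 46.9, 47.1 and 49.5 CPM in control total RNA (log2 fold change -0.31 ± 0.070 SE, edgeR adjusted p = 0.0207). Hspa1a, Hspa1b, Dnajb1, Bag3 and Hspb1 had log2 fold changes of 0.29, -0.0030, 0.41, 0.083 and 0.37 and did not pass. Of these, Dnajb1 alone passed with the replicate block.

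In HTT-deleted cells 0 of 40 chaperone genes were called between ribosome-associated and total RNA by edgeR, where 0.896% of 14627 genes were. At an unadjusted p under 0.05 there were 2 of the 40, and 1785 of all genes. DESeq2 called 1 of the 40 and 866 of all genes, and limma voom called 0 of the 40 and 138 of all genes. The smallest p were those of Dnajb6, Dnajb1 and Hspb8. Dnajb6 had 142, 138 and 131 CPM in HTT-deleted ribosome-associated RNA, against 102, 101 and 103 CPM in HTT-deleted total RNA (log2 fold change 0.41 ± 0.12 SE, edgeR adjusted p = 0.225). Dnajb1 had 62.4, 58.7 and 68.5 CPM in HTT-deleted ribosome-associated RNA, against 45.3, 48.1 and 50.9 CPM in HTT-deleted total RNA (log2 fold change 0.38 ± 0.14 SE, edgeR adjusted p = 0.302). Both had groups apart. In all 6 of 40 were apart in the higher direction, against 8.89% of all genes. Hspb8, a small heat shock protein that pairs with Bag3, had 78.5, 70.4 and 93.8 CPM in HTT-deleted ribosome-associated RNA, against 52.1, 54.6 and 72.5 CPM in HTT-deleted total RNA (log2 fold change 0.43 ± 0.19 SE, edgeR adjusted p = 0.445), and the groups overlapped. Dnajc7 was the 1 of 40 apart in the lower direction, as it was in control cells, with a log2 fold change of -0.28. The share of all genes apart in that direction was not counted here.

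These counts turned on HTT-deleted total RNA replicate 1. Without it 10 of 40 genes were called, where 19.9% of all genes were, and all 10 were among the 16 of control cells. With pair 1 left out and the replicate block 32 of 40 were called, where 55.6% of all genes were. That fit rested on pairs 2 and 3 alone, which leaves little to estimate the spread from. With the block and all pairs 0 of 40 and 97 of 14627 genes were called. Of the 32, 25 were among the 26 called with the block in control cells. Neither overlap with the calls of control cells was counted over all genes. Pair medians were -0.12, 0.26 and 0.25. Hspe1 had a log2 fold change of 0.22 with all libraries and 0.87 without HTT-deleted total RNA replicate 1 (edgeR adjusted p = 0.00602).

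**Figure D4:**
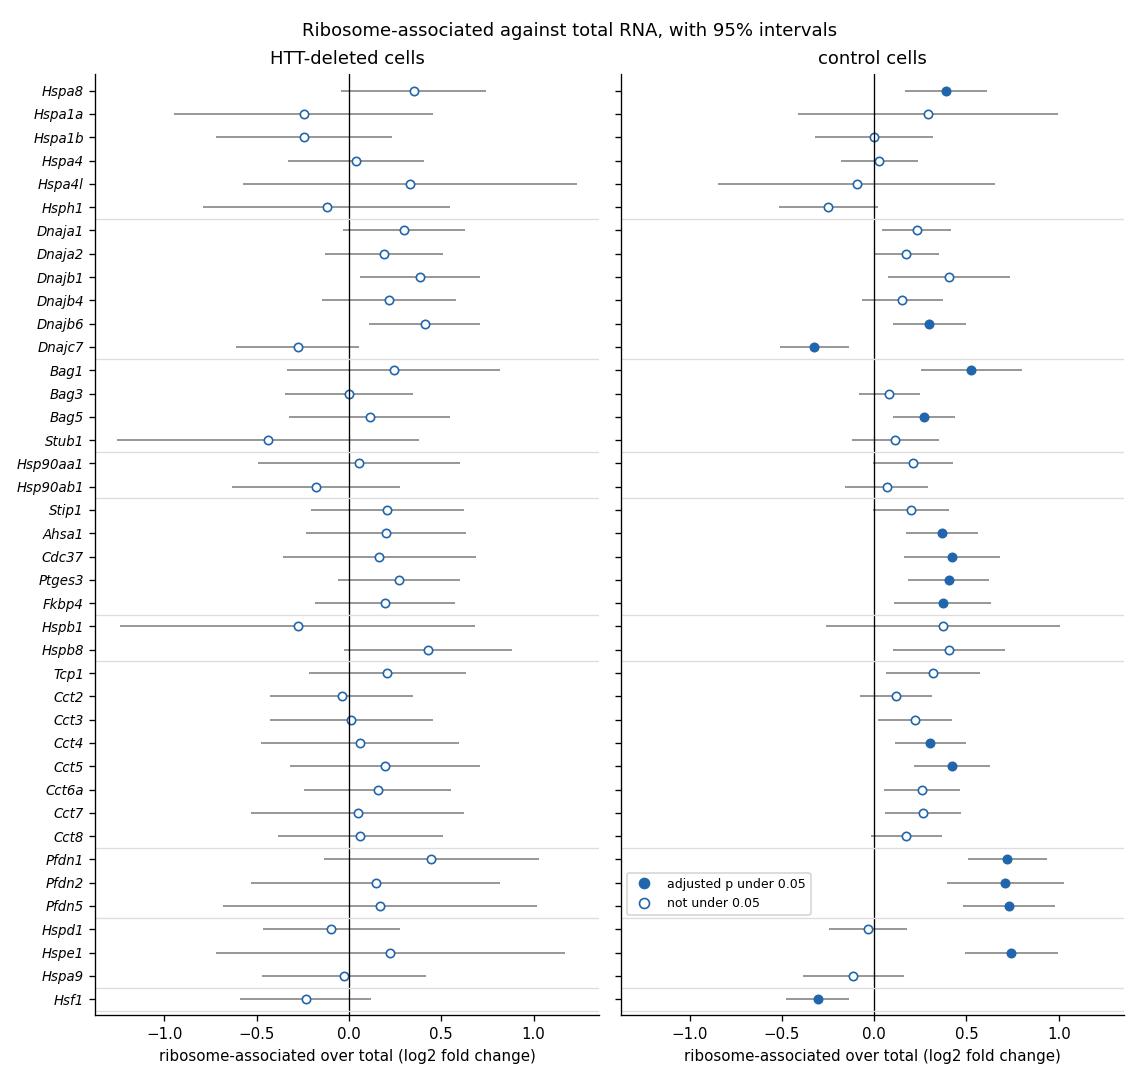
Log2 fold change of ribosome-associated over total RNA for each of the 40 chaperone genes with its 95% interval, in HTT-deleted (left) and control cells (right); filled circles are genes with an adjusted p under 0.05. In control cells the 3 prefoldin genes and Hspe1 lie highest, at 0.71 to 0.74, and in HTT-deleted cells no circle is filled.

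How far transcript length went with the fold changes differed between the comparisons. In control cells the fold change of ribosome-associated over total RNA had a Spearman rho of -0.514 with annotated length over the 40 genes and -0.520 over 13254 coding genes. The 5 chaperone genes of up to 1200 bases, among them Hspe1, Pfdn1 and Pfdn5, had a median of 0.72, against 0.43 for the 1145 coding genes of that length. Those of over 1200 and up to 2000 bases had a median of 0.36, against 0.28, and those of over 2000 and up to 3000 bases 0.20, against 0.12. The 7 of over 3000 bases had a median of 0.028, against -0.145. In the comparison of HTT-deleted with control total RNA rho was -0.479 over the 40 genes and -0.486 over 13102 coding genes, and the 5 short chaperone genes had a median of 0.38, against 0.39 for coding genes. In HTT-deleted against control ribosome-associated RNA rho was 0.0097 over the 40 genes and 0.136 over coding genes. Between the RNA fractions of HTT-deleted cells it was -0.152 and -0.191. For the HTT effect on the ratio it had the opposite sign, at 0.433 and 0.521. The points share their libraries. An offset was then fitted for the length trend of each library relative to the mean of its RNA fraction, together with the replicate block. In total RNA the median of HTT-deleted against control cells was 0.059 under that offset, with 0 of 40 called. The offset leaves the mean length trend between the RNA fractions in place. Under it 1 of 40 was called between the fractions in HTT-deleted cells, where 5.11% of all genes were, and 30 of 40 in control cells, where 56.6% of all genes were. The part of length in the difference between the fractions was not tested.

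**Figure D5:**
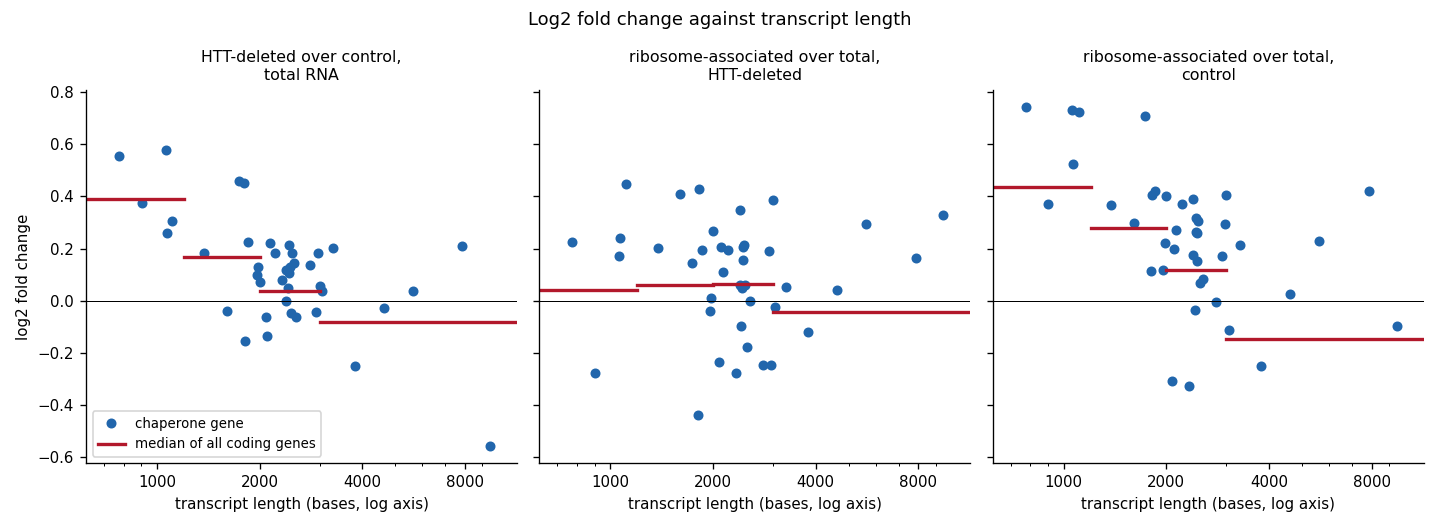
Log2 fold change of the 40 chaperone genes (points) against annotated transcript length on a log axis in 3 comparisons, with the median of coding genes in length ranges as red lines. Short genes lie high in HTT-deleted against control total RNA and in ribosome-associated against total RNA of control cells, where the 5 shortest have medians of 0.38 and 0.72.

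The difference between the RNA fractions was compared between HTT-deleted and control cells in a fit of all 12 libraries with the 6 cultures as a block. In edgeR's test 0 of 40 chaperone genes differed, with 0.0% of 15574 genes called, and 0 of the 40 had an unadjusted p under 0.05, where 150 of all genes did. DESeq2 and limma voom called 0 of 40. The median was -0.13, against 0.023 over all genes, and the pairs had -0.40, 0.012 and 0.033. Without HTT-deleted culture 1 the median was -0.024. The smallest p were those of Hspa1a, with a log2 difference of -0.52 ± 0.28 SE, Pfdn2, with -0.48 ± 0.28 SE, and Hsp90ab1, with -0.24 ± 0.17 SE. All of them had an edgeR adjusted p of 0.859. Hspa1a lay below 0 in every pair, at -0.81, -0.34 and -0.39. In all pairs 3 of the 40 lay below 0 and 2 above, where 7.51% and 9.90% of all genes did. Of the 40 intervals 33 lay within 2-fold.

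Other chaperone genes were counted from a list of 79 that includes further J-domain, BAG and prefoldin genes and the tubulin cofactors. Of these, 0 of 79 were called between HTT-deleted and control cells in either RNA fraction or in the ratio, where 0.0% of all genes were. The values in brackets here are log2 fold changes. The smallest p in total RNA were those of Dnajc15 (0.59), Dnajc24 (0.46) and Sugt1 (0.31), and in ribosome-associated RNA those of Pfdn6 (-0.22), Pdcl (0.20) and Unc45a (-0.13). Between ribosome-associated and total RNA of control cells 30 of 79 were called, 22 higher and 8 lower, with a median of 0.20. Of all genes 25.0% were called there, 10.0% higher and 15.0% lower, with a median of 0.017. The largest rises were those of Pfdn6 (0.64), a prefoldin subunit, Tbca (0.61), which binds beta-tubulin, and Dnajc19 (0.60), of the mitochondrial import motor. The largest falls were those of Tbce (-0.83), another tubulin cofactor, Dnajc13 (-0.60), an endosomal J-domain protein, and Hsf2 (-0.51), a second heat shock factor. In HTT-deleted cells 0 of 79 were called in that comparison, and 26 without total RNA replicate 1, where 0.896% and 19.9% of all genes were.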

How the data were processed

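Whole-number counts per gene were deposited by the authors for each of 12 libraries. Per the submitters' processing notes, FastQC, STAR 2.7.2b, HTSeq 0.11.1 and edgeR were used with GRCm38 (mm10); neither the annotation release nor the strand setting is stated there. The authors' deposited comparison table holds log2 fold changes and log2 CPM, a likelihood ratio score, and p-values with false discovery rates. HTSeq's rows for unassigned reads were left out of library sizes and tests; no-feature reads came to 2.64 to 3.30% in libraries from ribosomes and 6.94 to 7.73% in those of total RNA.

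The main test was edgeR 4.0.16 quasi-likelihood (R 4.3.3, TMM scaling, filterByExpr, robust), adjusted by Benjamini-Hochberg over all genes tested, for 5 comparisons. DESeq2 1.42.0, limma voom 3.58.1, other scalings and filters, a replicate block, a length offset and leaving out libraries were alternatives. The fits were also run on simulated counts. Those counts held neither the pairing of replicates nor the length trends of these libraries, so that run does not show how the fits perform here. Same-numbered replicates deviated together in every pair of groups compared (r of 0.227 to 0.737), so the numbers were taken to pair the samples. The main test did not use this pairing in the HTT and fraction comparisons, where the replicate block is an alternative. For the ratio it had the cultures as a block. Genes that passed or did not pass are those of the main test unless another fit is named. Levels are CPM, per kb of the annotated transcript in GENCODE vM21 where genes are compared. Intervals are 95%. Members and gene lists were chosen with earlier results of these data known.

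Values per library are given for up to 12 called members per comparison with the largest change, for the 3 with the smallest p where fewer than 3 were called, and for a fixed set that covers each role. Stub1 in total RNA was added after its values were seen.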

Additional observations from a re-analysis of the deposited data

How the results depend on the processing

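For the 40 genes, 0 were called between HTT-deleted and control cells under each of the 16 alternatives in total RNA, the 16 in ribosome-associated RNA and the 15 for the ratio. Over all genes, the total RNA comparison had 0 calls, but 1 with no filter on low counts, 3 with DESeq2 and 94 with pair 1 left out and the replicate block. Leaving out single libraries moved the median of the 40 there between -0.044 and 0.22. The ribosome-associated comparison had 0, but 1 with DESeq2, 247 with the replicate block, 280 with the length offset and replicate block, and 14 with pair 1 left out and the replicate block. Leaving out single libraries moved the median of the 40 between -0.071 and -0.016 there. Ribosome-associated against total RNA in HTT-deleted cells had 131 calls over all genes, but 208 with no filter, 86 with the 5 CPM filter, 866 with DESeq2, 1135 with all 12 libraries, 748 with the length offset and replicate block and 8333 with pair 1 left out and the replicate block. Of the 40, the calls were 1 with DESeq2, 1 with all 12 libraries, 1 with the length offset and 32 with pair 1 left out. Leaving out single libraries gave 0 to 3008 calls and 0 to 10 of the 40, the highest without total RNA replicate 1. In control cells the 3745 calls became 7524 with the replicate block, 1646 with all 12 libraries, 8490 with the length offset and replicate block and 7445 with pair 1 left out. The 16 of the 40 became 26, 4, 30 and 28 under the same settings, and 24 with DESeq2, which called 4317 of all 14990 genes. Leaving out single libraries gave 1507 to 3251 calls and 4 to 13 of the 40. Without control total RNA replicate 1 there were 1507 and 4, and without replicate 2 there were 2119 and 4. Hspb1 turned to 0.27 in HTT-deleted cells with pair 1 left out and the replicate block, against -0.28 with all libraries. The cause of these shifts was not tested. The low counts of Hspa1a and Hspa4l limit what can be seen for them.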

Other observations

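The balance of inducible and constitutive genes is given by library. The CPM of Hspa1a and Hspa1b together amounted to 1.00, 1.48 and 1.27% of that of Hspa8 in HTT-deleted ribosome-associated RNA, against 1.15, 1.64 and 1.31% in control ribosome-associated RNA. In total RNA it amounted to 1.64, 1.82 and 2.15% in HTT-deleted cells, against 1.66, 1.76 and 1.63% in control cells. The CPM of Hsp90aa1 per CPM of Hsp90ab1 was 0.404, 0.325 and 0.346 in HTT-deleted ribosome-associated RNA, against 0.301, 0.333 and 0.338 in control ribosome-associated RNA. In total RNA it was 0.342, 0.269 and 0.292 in HTT-deleted cells, against 0.298, 0.299 and 0.283 in control cells. These ratios were not tested.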
